A study of Homo sapiens with 4 samples.

Results

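The genes described here are 10 AP-1 and immediate early genes, measured in HCT116 derived clones with and without a knockdown of plakophilin3 (PKP3). They are FOS, FOSB, FOSL1, FOSL2, JUN, JUNB, JUND, EGR1, ATF3 and IER3, chosen by name, and every probe that carries one of these names was taken. That gave 18 probes among the 50117 probes that are not controls and have a value on all arrays. HCT116 is a widely used cell line from a colorectal carcinoma, and PKP3 is a protein of desmosomes, the junctions that anchor keratin filaments between epithelial cells. The series holds 4 single color arrays of Cy3 labeled RNA, 2 of the vector control clone, called vec, and 2 of the knockdown clone, called shpkp3-2, and the arrays of each clone are numbered 1 and 2. The knockdown clone stably carries a plasmid that encodes an shRNA against PKP3, and both clones were grown under drug selection, which the labels give as 5 μg/ml puromycin and the methods as 5 μg/ml blasticidin. Each genotype is represented by 1 clone, so each value compares these 2 clones. RNA for the arrays numbered 1 was collected at one time and RNA for the arrays numbered 2 at another.

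AP-1 is a transcription factor made of a JUN family protein (JUN, JUNB or JUND) paired with a FOS family protein (FOS, FOSB, FOSL1, also called FRA-1, or FOSL2, also called FRA-2), with another JUN protein or with a protein of the ATF family. Immediate early genes are transcribed within minutes of a stimulus such as serum, a growth factor or stress, without the need for new protein, and for most of them the RNA is short-lived. MAP kinases drive this response through serum response factor, its ternary complex partners and the phosphorylation of JUN and ATF proteins. EGR1 is a zinc finger transcription factor of the same response, and ATF3 is a stress induced partner and repressor. IER3 is an immediate early response gene linked to cell survival, and it is not itself known as a DNA binding transcription factor. In colorectal cells this pathway lies downstream of RAS signaling, and AP-1 sites are known in the promoters of proteases such as MMP7.

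Some of the sequences through which these genes answer stimuli lie close to their start sites, so promoter windows of 5 genes are shown, each with a different set of response elements. The windows are those of RefSeq on GRCh38.p14, from 250 bases before to 50 bases after the annotated start, written 5′ to 3′ on the strand of the gene. Windows were found for 8 of the 10 genes, with 2 for ATF3, and not for FOSL1 and IER3. Capitals mark every match, on either strand, to one of 6 motifs. These are the AP-1 element TGANTCA (TRE), the cyclic AMP response element TGACGTCA (CRE), the form of it with 1 letter changed, TGACATCA, the CRE core TGACG, which the CRE itself contains and overlaps, the CArG box bound by serum response factor, and the TATA box TATAAA.
FOS, chr14:75278578-75278877, plus strand: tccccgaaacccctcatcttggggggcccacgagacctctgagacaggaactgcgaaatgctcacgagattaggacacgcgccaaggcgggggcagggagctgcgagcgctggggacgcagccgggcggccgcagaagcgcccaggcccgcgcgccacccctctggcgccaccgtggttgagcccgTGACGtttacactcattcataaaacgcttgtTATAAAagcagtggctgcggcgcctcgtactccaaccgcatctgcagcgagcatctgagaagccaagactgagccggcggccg
EGR1, chr5:138465229-138465528, plus strand: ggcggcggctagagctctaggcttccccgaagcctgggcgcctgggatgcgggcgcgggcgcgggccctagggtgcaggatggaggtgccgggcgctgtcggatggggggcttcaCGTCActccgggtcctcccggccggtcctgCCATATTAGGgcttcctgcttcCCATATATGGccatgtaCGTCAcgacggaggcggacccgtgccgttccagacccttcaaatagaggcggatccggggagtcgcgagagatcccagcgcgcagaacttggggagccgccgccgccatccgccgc
FOSL2, chr2:28392608-28392907, plus strand: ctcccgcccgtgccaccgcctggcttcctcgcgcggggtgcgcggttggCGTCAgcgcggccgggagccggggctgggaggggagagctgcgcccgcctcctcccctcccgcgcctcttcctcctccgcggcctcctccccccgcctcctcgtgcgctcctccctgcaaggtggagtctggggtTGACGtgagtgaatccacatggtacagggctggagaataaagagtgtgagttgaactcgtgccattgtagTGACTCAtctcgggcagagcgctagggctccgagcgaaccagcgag
JUN, chr1:58783998-58784297, minus strand: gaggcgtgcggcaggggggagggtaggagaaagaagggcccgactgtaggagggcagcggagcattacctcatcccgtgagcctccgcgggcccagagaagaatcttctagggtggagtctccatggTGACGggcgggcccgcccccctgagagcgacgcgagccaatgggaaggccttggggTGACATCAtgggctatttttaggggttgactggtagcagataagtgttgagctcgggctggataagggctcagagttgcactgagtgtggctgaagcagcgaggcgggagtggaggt
JUND, chr19:18281573-18281872, minus strand: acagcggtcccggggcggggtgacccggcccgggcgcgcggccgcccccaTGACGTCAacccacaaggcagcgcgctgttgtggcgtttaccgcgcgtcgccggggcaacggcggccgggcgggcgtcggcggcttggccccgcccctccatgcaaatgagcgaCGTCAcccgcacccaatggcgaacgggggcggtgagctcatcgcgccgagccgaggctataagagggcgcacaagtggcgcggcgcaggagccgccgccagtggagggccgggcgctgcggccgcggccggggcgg

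The FOS window holds a CRE core 64 bases and a TATA box 33 bases upstream of the start. EGR1 holds CArG boxes at 105 and 83 bases upstream, and CArG boxes occur in 1.29% of all 35116 windows of this length. FOSL2 holds a TRE 5 bases into the transcript, a motif found in 7.71% of all windows. JUN holds the changed CRE 67 bases upstream, and 1 of the 2 windows of ATF3 holds it 123 bases upstream, against 2.61% of all windows. JUND holds a full CRE 200 bases upstream, against 1.85% of all windows. The TATA box was present in 4 of the 9 windows, at 33, 30 and 31 bases upstream in FOS, FOSB and JUNB and at 230 bases upstream of the other start of ATF3, and in 11.5% of all windows. The CRE core was present in 7 of the 9, and in 24.6% of all. A match describes letters in a window of limited length and is not a test of binding.

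The sequences that read the transcripts are 60 base probes. For 4 of the genes with several probes, the sequence of 1 of the additional probes is given because its result is set beside that of the brightest probe further on.
FOSL1, additional probe: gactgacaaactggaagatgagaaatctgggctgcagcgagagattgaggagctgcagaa
FOSL2, additional probe: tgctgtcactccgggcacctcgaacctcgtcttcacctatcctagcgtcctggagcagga
JUNB, additional probe: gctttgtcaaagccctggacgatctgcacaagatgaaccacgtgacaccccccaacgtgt
ATF3, additional probe: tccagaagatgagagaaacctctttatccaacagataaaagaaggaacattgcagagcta

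Values are log2 intensities minus the 75th percentile of the spots on that array that are not controls, so that 0 marks that percentile. They are comparable between arrays for 1 probe but not between probes. On this scale the knocked down gene, PKP3, was at 5.39 and 5.91 in vec and at 3.17 and 3.04 in shpkp3-2. It fell by 2.54 ± 0.23 (SE, n = 2 against 2), to 17.2% of vec, with an adjusted p of 0.0188 by limma, and by 2.21 and 2.86 within the first and the second RNA collection. With no filter on dim probes the adjusted p was 0.135, and with a weaker detection flag 0.145, the difference being the same. Of the 10 markers of epithelial cells checked, 9 were well above background on all 4 arrays, while 5 of 6 fibroblast markers were not on any array, COL1A1 being the exception. Of 4 markers of stratified epithelium, KRT14 was well above background on all arrays and 2 were on none. The 75th percentile of the intensity was 499 on vec 1 and 374 to 381 on the other arrays, and this array had the most spots well above background, 63.5% against 60.5% to 63.0%. All 4 arrays lay on 1 slide, with the arrays of each clone next to each other, so that position on the slide cannot be told apart from the clone.

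All 18 probes of the 10 genes were well above background on all 4 arrays, with intensities from 30.6 to 54973. Taking the brightest probe of each gene, 7 of the 10 genes had a higher mean in shpkp3-2 and 3 a lower one, where 56.9% of all tested probes were higher. None of the 10 passed limma at an adjusted p of 0.05, where 0.39% of the 30512 probes tested did. At an unadjusted p of 0.05, 3 of the 10 genes passed, JUNB and FOSB with higher and FOSL1 with lower values in shpkp3-2, against 12.3% of all probes tested. None of the 10 lay at least 1 log2 unit from the mean of vec on each shpkp3-2 array, the rule stated in the read-me of the supplementary gene list for these clones, against 1.74% of all probes. A figure legend of the study names 1.5-fold for these clones. At that size 1 of the 10 genes met the rule by its brightest probe, FOS, which was lower (6.88% of all probes). The vec mean of FOS rests on 1 high array, as given below. Of all 18 probes 2 met the rule, that of FOS and the additional probe of FOSL1, which was also lower. The 2 clones did not overlap for FOSB, JUNB, JUND and IER3, which were higher on both shpkp3-2 arrays (27.2% of all probes tested), and for FOSL1, which was lower on both (18.0%). The median difference of the 10 genes was 0.23 and that of all tested probes 0.05. With 2 arrays against 2, an exact permutation test cannot give a two-sided p under 0.333, so single genes rest on limma. As the arrays measured RNA of whole cultures, a change in each cell cannot be told apart from a change in the number of cells that hold the RNA.

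FOS encodes c-Fos, the AP-1 subunit most closely tied to acute stimulation. Its normalized log2 intensity was 1.03 on vec 1 and -0.59 on vec 2, and -0.75 and -0.50 on the shpkp3-2 arrays. In deposited intensities these are 1020.0, 254, 225 and 265, so vec 1 alone was high and the other arrays lay close together. The mean difference, the largest in size among the brightest probes of the 10 genes, was -0.85 ± 0.50 (SE). It came with a 95% confidence interval of -2.08 to 0.39 and an adjusted p of 0.549. It was -0.04 without vec 1 (adjusted p = 0.957) and -1.66 without vec 2 (adjusted p = 0.0652). Between the vec arrays FOS differed by 1.62 log2 units, or 3.07-fold, and 0.479% of the tested probes differed as much.

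FOSB, the close relative of FOS, had the dimmest brightest probe of the 10 genes. Its values were -2.76 and -3.03 in vec and -2.42 and -2.41 in shpkp3-2. Both knockdown arrays were above both control arrays, by 0.48 ± 0.19 on average, or 1.40-fold, with a confidence interval of 0.02 to 0.94 and an adjusted p of 0.390.

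FOSL1 encodes FRA-1, the FOS family protein that is stable in cells with sustained ERK signaling and is itself a known AP-1 target. On its brightest probe it was at 0.65 and 0.40 in vec and at 0.01 and -0.08 in shpkp3-2. The additional probe printed above read -1.72 and -1.92 in vec and -2.71 and -2.67 in shpkp3-2. Both probes were lower on both knockdown arrays, with no overlap. The differences were -0.56 ± 0.19 (confidence interval -1.02 to -0.10, adjusted p = 0.329) and -0.87 ± 0.18 (-1.32 to -0.43, adjusted p = 0.168), that is 67.7% and 54.5% of vec. The second of these had the smallest unadjusted p of the 18 probes, 0.0029. With the RNA collection as a replicate block, its adjusted p was 0.0927.

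FOSL2 encodes FRA-2, another FOS family partner of the JUN proteins. Its probes did not give 1 direction. The brightest, listed under an Ensembl transcript, was at -0.20 and 0.17 in vec and at -0.03 and 0.25 in shpkp3-2, so the clones overlapped and the difference was 0.12 ± 0.22 (adjusted p = 0.845). The other 3 probes, listed under the RefSeq transcript, had differences of -0.64, -0.52 and -0.59, with adjusted p of 0.335, 0.544 and 0.441. The probe printed above, with the difference of -0.52, was at -1.84 and -2.13 in vec and at -2.91 and -2.10 in shpkp3-2. There 1 knockdown array lay below both controls and the other just above vec 2. The probes with differences of -0.64 and -0.59 were lower on both knockdown arrays than on both controls, without overlap. Averaged over its 4 probes, FOSL2 differed by -0.41, opposite in sign to the brightest probe.

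The JUN family supplies the partners with which FOS proteins bind DNA. All 3 members had higher means in shpkp3-2. JUN, whose product c-Jun also pairs with itself and with ATF proteins, was at 3.44 and 3.14 in vec and at 3.39 and 3.94 in shpkp3-2. Only shpkp3-2 2 was above both controls, and the difference was 0.37 ± 0.25 (confidence interval -0.24 to 0.98, adjusted p = 0.588).

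JUNB, a JUN family protein known to hold back JUN in some settings, had the largest difference of the genes that were higher. It was at 4.82 and 4.20 in vec and at 5.02 and 5.39 in shpkp3-2, where both arrays were above both controls. The mean difference was 0.70 ± 0.27, or 1.62-fold, with a confidence interval of 0.03 to 1.36 and an adjusted p of 0.388. The additional probe was at -1.19 and -1.96 in vec and at -1.44 and -0.89 in shpkp3-2. There the clones overlapped, and the difference was 0.41 ± 0.32 (adjusted p = 0.637). The brightest probe was 0.20 higher in shpkp3-2 within the first RNA collection and 1.19 higher within the second. The additional probe differed by -0.25 and 1.07.

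JUND, the JUN family member that is expressed most evenly in unstimulated cells, is read by 3 probes. On the brightest it was at 6.45 and 6.19 in vec and at 6.62 and 6.69 in shpkp3-2. The 3 probes gave differences of 0.34, 0.31 and 0.35, each without overlap between the clones and with adjusted p of 0.526, 0.539 and 0.502. Under quantile normalization the brightest probes of JUND and JUNB no longer separated the clones.

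EGR1, whose promoter window holds the CArG boxes shown above, was at 4.03 and 3.50 in vec and at 3.45 and 3.90 in shpkp3-2. The clones overlapped, and the difference was -0.09 ± 0.26 with a confidence interval of -0.74 to 0.55 (adjusted p = 0.911). This interval runs from 0.600-fold to 1.47-fold of vec.

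ATF3 was at 3.12 and 2.38 in vec and at 2.71 and 3.02 in shpkp3-2, so that both knockdown arrays lay between the controls. Its difference was 0.12 ± 0.29, with a confidence interval of -0.59 to 0.82 (adjusted p = 0.895). The additional probe was at -2.77 and -3.41 in vec and at -3.42 and -2.79 in shpkp3-2, a difference of -0.01 ± 0.31.

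IER3 was at 6.38 and 6.77 in vec and at 6.88 and 7.20 in shpkp3-2. Both knockdown arrays were above both controls, by 0.46 ± 0.22 on average, or 1.38-fold (confidence interval -0.08 to 1.01, adjusted p = 0.472). It was higher within both RNA collections, by 0.50 and 0.43.

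**Figure D1:**
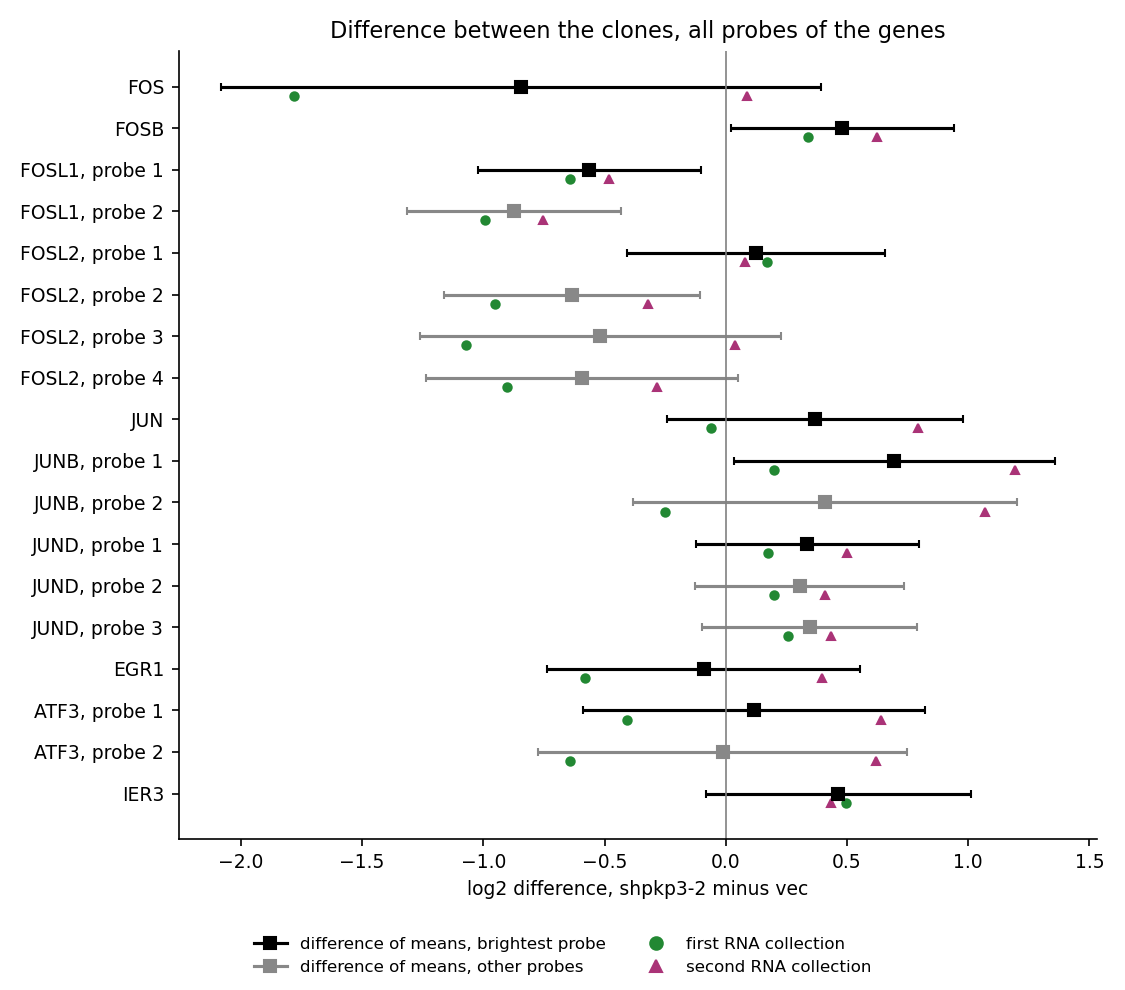
Log2 difference between shpkp3-2 and vec for all 18 probes, with squares for the difference of means, bars for its 95% confidence interval from limma, and circles and triangles for the first and second RNA collection. The probes of JUND lie together, and both probes of FOSL1 are lower, at -0.56 and -0.87. Probe 1 of FOSL2, at 0.12, stands apart from its other probes, at -0.64 to -0.52.

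The collections did not give the same direction for every gene. Within the first collection FOS was 1.78 lower in shpkp3-2 (-1.78), EGR1 0.58 lower (-0.58), ATF3 0.41 lower (-0.41) and JUN 0.06 lower (-0.059). Within the second collection the same genes were higher by 0.088, 0.40, 0.64 and 0.79. These 4 of the 10 genes had opposite signs in the 2 collections, against 44.9% of all tested probes. On their brightest probes the other 6 genes kept their sign, and among them JUNB, FOSB and JUND were higher and FOSL1 was lower in both. The additional probes of JUNB and FOSL2 printed above did not. They differed by -0.25 and -1.07 in the first collection and by 1.07 and 0.04 in the second. Of all 18 probes 7 had opposite signs. Each collection holds 1 array of each clone, so the difference between collections could not be tested gene by gene.

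The arrays of a clone also differed for these genes. Of the 10 genes, 8 were higher on vec 1 than on vec 2, by 0.25 (FOSL1) to 1.62 (FOS), and FOSL2 and IER3 were lower on vec 1. ATF3 differed by 0.74, JUNB by 0.62 and EGR1 by 0.53, and 10.2%, 15.8% and 21.9% of all tested probes differed by as much. FOS alone differed by at least 1, against 3.87% of tested probes. Between the shpkp3-2 arrays, 9 of the 10 genes were higher on shpkp3-2 2, FOSL1 being the exception, and the largest difference was that of JUN, 0.55. None reached 1, against 1.33% of tested probes. The median absolute difference over the 10 genes was 0.38 between the vec arrays and 0.30 between the shpkp3-2 arrays, beside 0.28 and 0.17 over all tested probes. Vec 1 is also the array with the highest 75th percentile intensity given above, and over the 28883 probes detected on all arrays vec 2 correlated less with it (r = 0.989) than with shpkp3-2 1 (0.991) and shpkp3-2 2 (0.990). The part of that in these values was not tested. The values of vec 1 for FOS stayed above vec 2 under normexp, quantile and median scaling, by 1.37 to 1.64. FOSB was -0.038 instead of 0.27 under normexp, and the mean of its 4 probes put FOSL2 at 0.028 instead of -0.37, so the count of 8 depends on these choices.

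**Figure D2:**
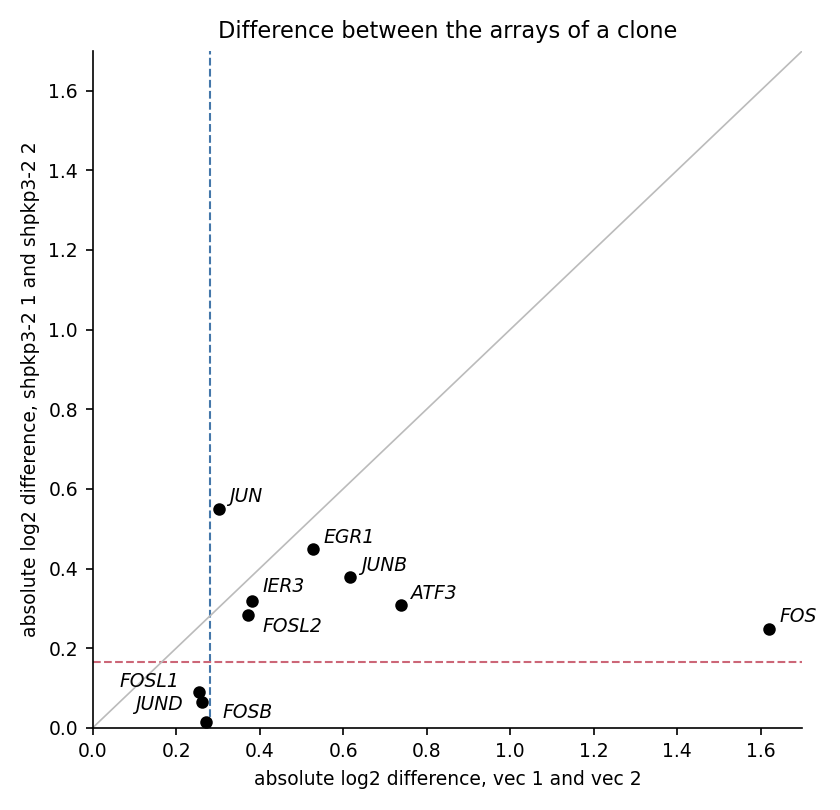
Absolute log2 difference between the vec arrays (horizontal axis) and between the shpkp3-2 arrays (vertical axis) for the brightest probe of each gene. Dashed lines give the medians over all tested probes, 0.28 and 0.17, and FOS lies far to the right at 1.62.

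The 3 genes whose pattern over the 4 arrays was nearest to that of FOS were SP2, RNF41 and APPL2, with root mean square distances of 0.08, 0.09 and 0.12 on values centred on the mean of vec, out of 14558 genes compared. They too were higher on vec 1 than on vec 2, by 1.61, 1.42 and 1.31. With 4 arrays of which 1 stands apart, such likeness is a description of that array.

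Other proteins can take the place of FOS or JUN in the dimer. Of 22 other dimer partners, among them the ATF, CREB, BATF and MAF families, 21 were tested and none was called by limma in either direction, with a median difference of -0.11. At an unadjusted p of 0.05, 2 were lower and none was higher, where 12.3% of all tested probes passed in either direction. The 2 with the largest differences were CREB5 and DDIT3. CREB5, which binds CRE sequences and pairs with JUN, was at -2.74 and -3.16 in vec and at -4.79 and -4.20 in shpkp3-2. It was lower without overlap, by -1.55 ± 0.27 with an adjusted p of 0.122, while its other probe differed by -0.40. Without shpkp3-2 2 its adjusted p was 0.0463. With the RNA collection as a replicate block its adjusted p was 0.00104, and after normexp background correction the difference was -0.45. DDIT3, the stress factor CHOP, was at 0.10 and -1.02 in vec and at -1.91 and -1.19 in shpkp3-2, a difference of -1.09 ± 0.42 with an adjusted p of 0.386. Within the first collection, which holds the high vec 1 array, the difference was -2.01, and within the second it was -0.17.

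Of 47 other immediate early and growth factor response genes, 46 were tested and none was called by limma, with 25 higher and 21 lower and a median of 0.05, that of all probes being 0.05. At an unadjusted p of 0.05, 9 were higher and 2 lower, against 12.3% of all tested probes in either direction. The 2 largest differences were those of NR4A3 and ZFP36L2. NR4A3, an orphan nuclear receptor that is induced as an immediate early gene, was at -0.98 and -1.51 in vec and at 0.32 and 0.61 in shpkp3-2. Both knockdown arrays were above both controls, by 1.71 ± 0.24 on average, with an adjusted p of 0.0787. ZFP36L2, which binds and destabilizes AU-rich RNA, was at 0.43 and 0.57 in vec and at 1.69 and 1.56 in shpkp3-2, a difference of 1.12 ± 0.18 with an adjusted p of 0.101. With the RNA collection as a replicate block 3 genes of this list passed, NR4A3 (adjusted p = 0.000214), ZFP36L2 (0.0174) and NR4A2 (0.0231). Arrays of the same collection did not deviate alike from their clone means, correlating at -0.199 across tested probes. NR4A3 also passed with normexp background correction (0.0129), without vec 1 (0.0310) and with a trended and robust prior (0.0300), and ZFP36L2 with normexp (0.0241) and with that prior (0.0372). NR4A2 was chosen after its values were seen, and its difference was 1.11. None of the 10 AP-1 and immediate early genes passed in that fit, where 503 probes were called higher and 338 lower against 75 and 44 without the block.

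Of 30 MAP kinases and serum response factors upstream, 29 were tested and none was called by limma, nor at an unadjusted p of 0.05 (0 of 29, against 12.3% of all tested probes), with a median of -0.07. The largest differences were 0.61 for MAPK13, a p38 kinase whose other probe gave 0.58, and 0.57 for HRAS. MAPK13 was at 1.04 and 2.28 in vec and at 2.38 and 2.16 in shpkp3-2. HRAS was at 1.58 and 2.86 in vec and at 2.94 and 2.63 in shpkp3-2. For both genes vec 1 was low and the other arrays were close together, the reverse of FOS, and the adjusted p were 0.580 and 0.614.

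Of 28 genes known as AP-1 targets, a list that also holds FOSL1, 21 were tested, 1 was called higher and none lower by limma, with a median of 0.17. At an unadjusted p of 0.05, 5 were higher and 4 lower, against the same 12.3%. With the RNA collection as a replicate block limma called MMP7 higher and also MMP10 lower. MMP10, named because of this call, differed by -1.09, with an adjusted p of 0.0224 against 0.142 without the block. It was well above background on 3 of the 4 arrays, and after normexp background correction its difference was -0.14. The gene called without the block was MMP7, the matrix metalloproteinase that the study follows. It was at -1.61 and -1.51 in vec and at 0.03 and -0.05 in shpkp3-2, and it rose by 1.55 ± 0.17 with an adjusted p of 0.0399. This call was lost under quantile normalization (adjusted p = 0.0543), with no filter on dim probes (0.224), with the weaker detection flag (0.175) and without vec 2 (0.0573), shpkp3-2 1 (0.118) or shpkp3-2 2 (0.0776), while the difference kept its direction in all of these fits.

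**Figure D3:**
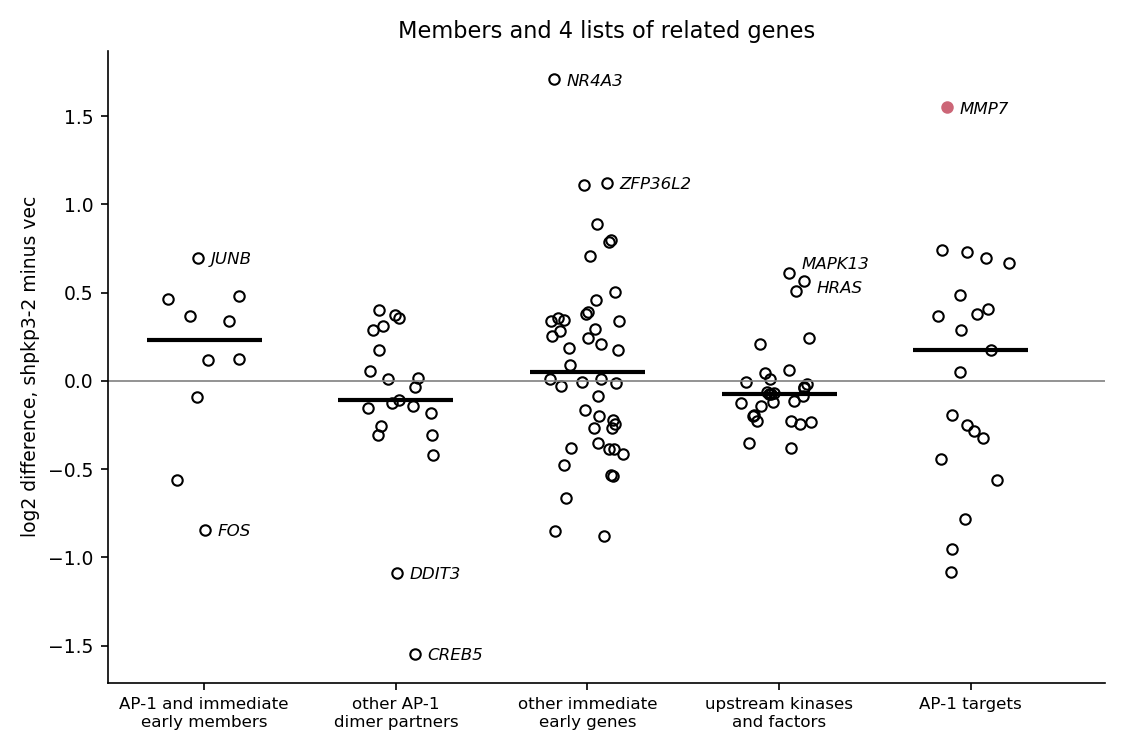
Log2 difference between shpkp3-2 and vec for the 10 genes and for the tested genes of 4 related lists, with 1 point per gene (brightest probe) and bars for the medians. The filled point, MMP7 at 1.55, is the only gene called by limma without the block at an adjusted p of 0.05. NR4A3 lies at 1.71 and CREB5 at -1.55.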

How the data were processed

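Expression was measured on 4 single color Agilent arrays. The authors deposited the Feature Extraction output of each array (version 10.7.3.1 per the file headers, 9.1 per the labels; probes designed on hg18), whose processed signal is a linear intensity after background subtraction and detrending, with no scaling between arrays. The deposited files also hold mean and local background intensities and 0 or 1 flags, another kind of value. The summed intensities per array ran from 115635392 to 130032824, and no spot was saturated. The number of arrays limits the precision.

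Outlier spots (26 to 39 per array) were left out, the 75th percentile of log2 intensity was subtracted, and spots of a probe were averaged. A probe was tested where both arrays of either clone were flagged well above background, which left 30512 probes. The test was lmFit and eBayes of limma 3.58.1 (R 4.3.3), with no covariates and Benjamini-Hochberg adjustment over all of them. The labels call the arrays of a clone biological replicates, and p-values measure only the spread between these arrays. The script was tested on simulated data. Of the 50238 probes, 28595 were matched to RefSeq symbols of GRCh38.p14 by accession, 2998 by symbol, 1176 by an older symbol and 17469 not at all. A gene takes its brightest probe, and the others of the 10 genes are given beside it. Python 3.11.15 with numpy 2.4.6, pandas 2.3.3 and scipy 1.17.1 gave counts, and matplotlib 3.10.9 the figures.

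The design text of the series pairs arrays by RNA collection. As a check, each array was centred on its own clone, and paired arrays correlated at -0.199 across tested probes. The main fit has no block, as the methods name none, and the replicate block is an alternative, under which 503 probes were higher and 338 lower.

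Leukocyte markers are not reported here. The genes and lists were chosen with earlier results of these data known. All 10 genes are named, with the difference of each of their probes, and PKP3. From each list the genes called by limma are named, or otherwise the 2 with the largest difference among those well above background on all arrays, as well as the 3 genes nearest to the member with the largest difference. The alternatives were normexp (offset 50), quantile normalization, median centring, other detection filters, the block, each array left out, a trended and robust prior, and the mean of the probes of a gene.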

Additional observations from a re-analysis of the deposited data

Results flagged for a closer look

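For 4 of the 10 genes, by their brightest probes, the difference between shpkp3-2 and vec had opposite signs in the 2 RNA collections. FOS differed by -1.78 in the first and 0.088 in the second, JUN by -0.059 and 0.79, EGR1 by -0.58 and 0.40, and ATF3 by -0.41 and 0.64. Each collection holds 1 array per clone, and the difference between the collections was not tested. Opposite signs were found for 44.9% of all tested probes.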

How the results depend on the processing

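None of the 10 genes was called by limma under any of the 12 alternative fits, and none met the rule of 1 log2 unit under the scaling alternatives or the mean of the probes. Of 125 alternative values for single genes, 118 kept their direction and 7 did not. The other detection filters, the block and the trended and robust prior cannot change a difference, so their values kept direction by construction. The median difference of the 10 genes was 0.16 to 0.37 under the alternatives, except without shpkp3-2 2, where it was 0.04. Leaving out 1 array moved EGR1 from -0.35 to 0.17 (0.17 without vec 1 and 0.13 without shpkp3-2 1), ATF3 from -0.25 to 0.49 (-0.25 without vec 2 and -0.04 without shpkp3-2 2) and FOSL2 from -0.062 to 0.31 (-0.062 without vec 1 and -0.02 without shpkp3-2 2). JUN moved from 0.09 to 0.64 (0.09 without shpkp3-2 2 and 0.64 without shpkp3-2 1), JUNB from 0.39 to 1.00, JUND from 0.21 (without vec 2, and likewise 0.21 with quantile normalization) to 0.47 and IER3 from 0.27 to 0.66, without a change of sign. The mean of the 4 probes of FOSL2 turned its difference to -0.41, as its other probes are lower.

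At 1.5-fold, a threshold added after seeing the data, 1 of the 10 genes (FOS) met the fold rule by its brightest probe. The additional probe of FOSL1 met it as well. Other alternatives chosen after seeing the data concern the genes whose clones do not overlap. Quantile normalization left 2 higher genes (FOSB and IER3) in place of 4, and the lower genes numbered 2 in place of 1 with median centring, which adds FOS, and with the mean of all probes, which adds FOSL2. That mean left 3 higher genes in place of 4, as the clones then overlap for JUNB.

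Over all probes, 75 were called higher and 44 lower. The counts were 42 and 32 with quantile normalization, 10 and 8 with no filter on dim probes, 25 and 21 with probes well above background on all arrays, 1 and 1 with the weaker detection flag, 114 and 59 with a trended and robust prior, and 503 and 338 with the replicate block. Leaving out 1 array gave 108 to 243 higher and 55 to 154 lower, where the lone array is assumed to vary like those of the other clone. The block changed no call among the 10 genes. The causes of these moves were not tested beyond what each setting changes by construction. Of the dim probes, the normexp correction moved CREB5 to -0.45 and FOSB to 0.31.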
